A study of Macaca fascicularis with 20 samples.

Results

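TOX, IRF8, ID2 and ID3, 4 transcription regulators known from early lymphocyte development, were followed across natural killer (NK) cell subsets and B cells of the cynomolgus macaque spleen. They were found by matching the transcript accession of each array probe, without its version suffix, to the RefSeq genes of the species, and are 4 of 12530 genes matched in this way. Each was represented by 1 probe on 1 spot, which was well above background on all 20 arrays. The 4 genes were chosen by their known roles with earlier results of these arrays in view, and TOX and IRF8 were selected on their measured differences between NK subsets, foremost CD27lo CD11b+ minus CD27+ CD11blo cells and CD27+ CD11b+ minus CD27lo CD11b+ cells. Those differences are therefore given as a description without a p-value, whereas ID2 and ID3, and the levels of all 4 genes in NK cells relative to B cells, were tested.

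The study sorted cells by surface CD11b, the alpha chain of the integrin Mac-1, and by CD27, a costimulatory receptor that binds CD70. The arrays held CD27+ CD11b+ NK cells (double positives, 5 arrays), CD27lo CD11b+ NK cells (CD11b single positives, 5 arrays), CD27lo CD11blo NK cells (double-low cells, 4 arrays), CD27+ CD11blo NK cells (CD27 single positives, 4 arrays) and B cells (2 arrays). All cells came from cryopreserved spleen samples, were thawed and were not stimulated. The NK cells were live CD45+ cells without CD3, CD14, CD20 or HLA-DR that carried NKG2A and CD8a, and the B cells carried CD20 and HLA-DR and lacked NKG2A and CD8a. No treatment, strain or genetic modification is named.

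By their labels, replicate 1 of each NK subset came from a 4 year old male of Cambodian origin and replicate 2 from a male of Vietnamese origin and unknown age. Replicate 3 came from males of Vietnamese origin labelled 12 years in double positives, 11 in CD11b single positives, 9 in double-low cells and 10 in CD27 single positives. Replicate 4 was a 5 year old male from Singapore in double positives and CD11b single positives, and an 18 year old female from Singapore in double-low cells and CD27 single positives. Replicate 5 of the CD11b+ subsets was also an 18 year old female from Singapore, and the B cell arrays came from females from Singapore of 5 and 18 years. The labels speak of biological replicates but do not say which arrays share an animal, and whether the 4 ages of replicate 3 stand for 4 animals is not settled, so p-values measure the spread between these samples.

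TOX is a nuclear protein of the high mobility group box family that, in mice, is required for the development of NK cells and other innate lymphoid cells. IRF8 is an interferon regulatory factor that directs the development of dendritic cells and monocytes, is expressed in B cells and also acts in NK cells. ID2 and ID3 are helix-loop-helix proteins without a DNA-binding region that hold E proteins away from DNA; ID2 is required for NK cell development in mice, and ID3 acts with it in several lymphoid lineages.

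Levels are the log2 of the processed signal minus the log2 of the 75th percentile of its array, so that 0 is the 75th percentile and 1 unit is a doubling of signal. They can be compared between arrays for 1 gene, but not between genes, which have different probes. A bulk level cannot tell fewer cells with a transcript apart from less RNA per cell. The 75th percentile of intensity ranged between 180 and 1897 over the arrays. The dimmest arrays were replicate 4 of double positives (180) and replicate 4 of double-low cells (199.6), well under the third dimmest at 578.2. The arrays lay on 3 slides scanned on 2 days. Replicates 1 and 2 of all NK subsets were on the first slide. Replicate 3 of all subsets was on the second, together with replicate 4 of the CD11blo subsets and the B cells. Replicates 4 and 5 of the CD11b+ subsets made up the third.

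The labelled cell types were checked against their markers. Of 12 NK identity genes, 9 passed the test as higher in NK cells than in B cells (limma, Benjamini-Hochberg adjusted p of at most 0.05), as 1.72% of all 12388 genes tested did, among them KLRD1, which encodes CD94, at a log2 difference of 6.67. Of 10 measured B cell genes, 7 passed as lower in NK cells, against 1.2% of all genes, among them CD22 at -5.74. The summed linear signal of the 10 B cell markers, in multiples of the 75th percentile of the array, was 1.76 to 3.08 in double positives, 1.76 to 4.48 in CD11b single positives, 2.11 to 10.5 in double-low cells and 1.87 to 4.57 in CD27 single positives, against 55.2 to 60.3 in B cells.

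**Figure D1:**
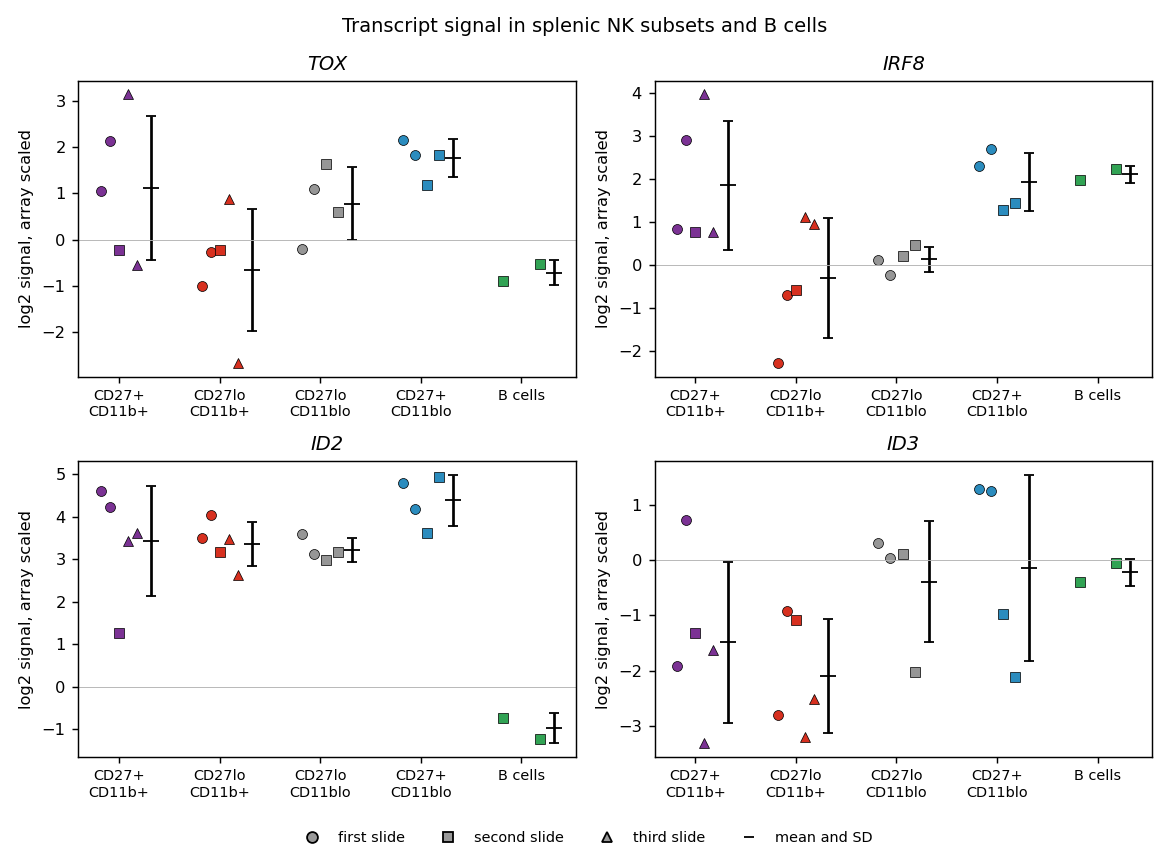
Levels of the 4 genes on every array (points, shape by slide), as log2 signal relative to the 75th percentile of the array, with the mean and SD of each group (bars). ID2 lay above both B cell arrays on all 18 NK arrays, and IRF8 was between 0.77 and 3.97 on CD27+ arrays and between -2.28 and 1.11 on CD27lo NK arrays.

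Of the NK subsets, TOX was lowest on average in CD11b single positives and highest in CD27 single positives. Its level was 1.05, 2.12, -0.22, 3.14 and -0.55 in replicates 1 to 5 of double positives and -1.0, -0.26, -0.23, 0.88 and -2.67 in those of CD11b single positives. Double-low cells had -0.20, 1.09, 1.63 and 0.59, CD27 single positives 2.16, 1.83, 1.19 and 1.84, and B cells -0.91 and -0.53. All 5 CD11b single-positive arrays were below all 4 CD27 single-positive arrays, while double positives spread over both ranges. Such a gap was seen in 1.19% of the 12192 genes tested in NK cells, and since TOX was picked for this contrast nothing is read from it. The mean difference of CD11b single positives minus CD27 single positives was -2.41 ± 0.72 (log2, limma standard error), a 5.32-fold lower signal.

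The means of TOX ran from 1.75 ± 0.41 (SD, n = 4) in CD27 single positives over the double-positive mean of 1.11 ± 1.55 (n = 5) and the double-low mean of 0.78 ± 0.78 (n = 4) to -0.66 ± 1.31 (n = 5) in CD11b single positives and -0.72 ± 0.27 (n = 2) in B cells. Neighbours in this order had overlapping arrays throughout. The spread was widest in double positives, whose arrays covered 3.68 log2 units.

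Between the CD11b+ subsets, TOX was higher in double positives than in CD11b single positives in 5 of 5 pairs of the same replicate number. TOX was selected on this contrast, so nothing is read from that count or from the evenness of the pairs. The pair differences were 2.05, 2.38, 0.01, 2.26 and 2.13 for replicates 1 to 5. Replicate 3 showed almost no difference. The 4 other pairs lay within 0.33 of each other, although the levels themselves differed by up to 3.68 between double-positive arrays. The fitted difference was 1.77 ± 0.68. Between the CD11blo subsets, TOX was lower in double-low cells than in CD27 single positives in 3 of 4 pairs (-2.36, -0.74, 0.45 and -1.25), with a fitted difference of -0.98 ± 0.76.

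With CD11b balanced, TOX was on average 1.37 ± 0.51 higher in CD27+ than in CD27lo subsets. The 9 CD27+ arrays had a lowest level of -0.55, a median of 1.83 and a highest of 3.14, against -2.67, -0.20 and 1.63 in the 9 CD27lo arrays, and the ranges overlapped. Each slide held equal numbers of CD27+ and CD27lo arrays of each CD11b status, so a slide block could not move this difference (1.37). Within the first slide it was 1.88 and within the second 0.21. With CD27 balanced, TOX was -1.04 ± 0.51 in CD11b+ minus CD11blo subsets (-1.06 with slide as a block, -0.74 and -1.54 within the first and second slide, -0.58 with the replicate number as a block), and 6 of the 10 CD11b+ arrays were below all 8 CD11blo arrays. TOX was selected on subset differences, so nothing is read from this count. The median difference of all 12192 genes was -0.37 for CD27 and -0.13 for CD11b, so that relative to all genes the CD27 difference of TOX was 1.74 and the CD11b difference -0.91.

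**Figure D2:**
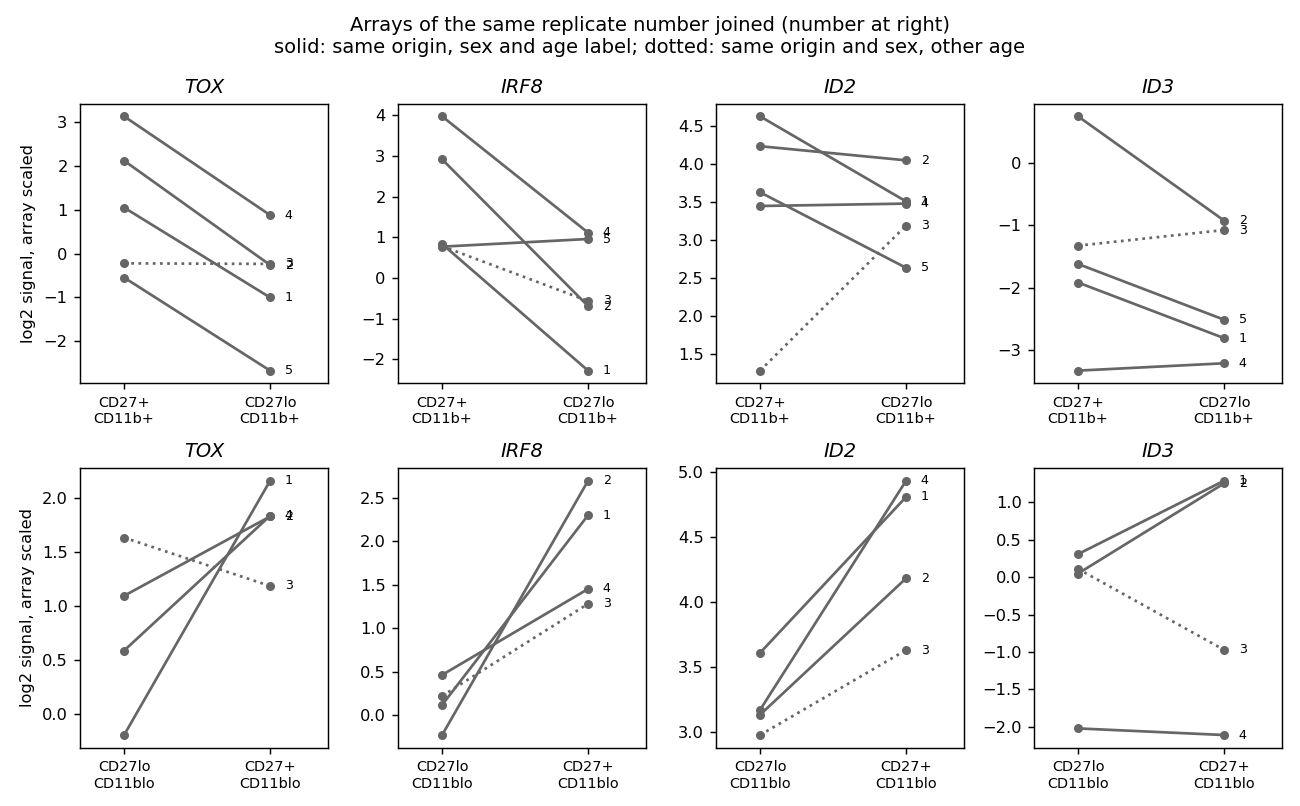
Levels on arrays of the same replicate number, joined by lines, for double positives and CD11b single positives (top) and double-low cells and CD27 single positives (bottom). Each axis shows log2 signal relative to the 75th percentile of the array. TOX was higher in double positives in 5 of 5 pairs, and IRF8 and ID2 were lower in double-low cells in 4 of 4 pairs. TOX and IRF8 were selected on subset differences, so their pair counts are a description.

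IRF8 was higher on most CD27+ than on CD27lo NK arrays. Double positives had levels of 0.84, 2.91, 0.78, 3.97 and 0.77 and CD11b single positives -2.28, -0.69, -0.56, 1.11 and 0.96. Double-low cells had 0.12, -0.23, 0.22 and 0.46, CD27 single positives 2.30, 2.70, 1.28 and 1.45, and B cells 1.98 and 2.25. All 4 double-low arrays lay below every CD27+ array, and 7 of the 9 CD27lo arrays lay below all 9 CD27+ arrays. The exceptions were replicates 4 and 5 of CD11b single positives, both on the third slide. IRF8 was selected on differences between subsets, and the share of all genes with such gaps to all CD27+ arrays was not counted. Nothing is therefore read from these positions.

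The order of the means was 2.11 ± 0.19 (SD, n = 2) in B cells, 1.93 ± 0.68 (n = 4) in CD27 single positives, 1.85 ± 1.5 (n = 5) in double positives, then 0.14 ± 0.29 (n = 4) in double-low cells and -0.29 ± 1.39 (n = 5) in CD11b single positives. Of the neighbours in this order, only double positives and double-low cells had no overlap. No other group of NK arrays was as even in IRF8 as the double-low cells, within 0.69 log2 units, including their replicate 4, one of the dimmest arrays.

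The fitted differences of IRF8 were similar in size on both sides of CD11b. It was 2.15 ± 0.67 higher in double positives than in CD11b single positives, with pair differences of 3.11, 3.60, 1.35, 2.86 and -0.19. In double-low cells it was -1.79 ± 0.75 relative to CD27 single positives, with pair differences of -2.18, -2.93, -1.06 and -0.99. The groups did not overlap in double-low cells minus CD27 single positives (lower, as in 3.73% of genes), in CD11b single positives minus CD27 single positives (lower, 1.19%) or in double positives minus double-low cells (higher, 1.36%); IRF8 was picked for differences between subsets, so nothing is read from these shares. The last was 1.71 ± 0.71 in all, 1.06 with slide as a block, 1.93 within the first slide and 0.44 within the second, and 1.18 without replicate 4 of double positives, the dimmest array.

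With CD11b balanced, IRF8 was 1.97 ± 0.50 higher in CD27+ than in CD27lo subsets, a 3.91-fold difference. The lowest, median and highest levels were 0.77, 1.45 and 3.97 in CD27+ arrays, against -2.28, 0.12 and 1.11 in CD27lo arrays. A slide block could not move this difference either (1.97), as each slide held equal numbers of CD27+ and CD27lo arrays. It was 2.96 within the first slide and 1.19 within the second. Within the third slide double positives minus CD11b single positives gave 1.33. With CD27 balanced the difference of CD11b+ minus CD11blo subsets was -0.26 ± 0.50, and -0.91 with slide as a block, -1.02 and -0.74 within the first and second slide. The interaction of CD27 with CD11b, the difference between the CD27 differences of CD11b+ and CD11blo cells, was 0.36 ± 1.01 for IRF8 and 0.79 ± 1.02 for TOX.

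Because IRF8 is a known gene of dendritic cells and B cells, markers of those cells are given beside it. The summed signal of 8 measured dendritic cell markers was 2.34 to 12.2 in double positives, 4.79 to 25.8 in CD11b single positives, 8.80 to 14.6 in double-low cells, 5.25 to 7.16 in CD27 single positives and 16.3 to 22.7 in B cells, whose sum was led by CD1C. None of the 8 was at background on every array of an NK subset. For all 8 the difference between CD27+ and CD27lo subsets was negative, with a median of -0.70 against -0.37 for all genes. None passed the test, in which 0% of all genes did. The part of these cells in the IRF8 levels was not tested. Over the 18 NK arrays, which share slides and may share animals, IRF8 correlated with this sum at r = -0.28 (rho = -0.37) and with the B cell sum at r = -0.21 (rho = -0.12).

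**Figure D3:**
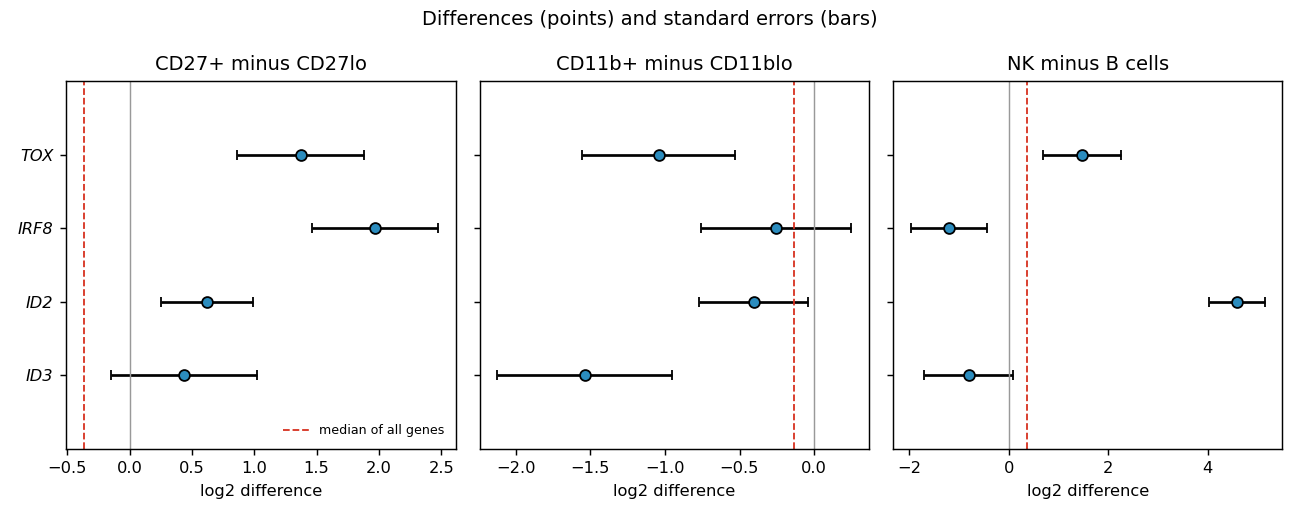
Fitted log2 differences (points) with their standard errors (bars) for CD27+ minus CD27lo NK subsets, CD11b+ minus CD11blo NK subsets and NK cells minus B cells; the dashed line is the median of all genes. IRF8 (1.97) and TOX (1.37) stood highest for CD27, ID3 (-1.54) lowest for CD11b, and ID2 (4.58) highest in NK cells over B cells.

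ID2 separated NK cells from B cells. Its level was 4.62, 4.23, 1.28, 3.44 and 3.62 in double positives and 3.50, 4.04, 3.19, 3.47 and 2.63 in CD11b single positives. Double-low cells had 3.61, 3.13, 2.98 and 3.17, CD27 single positives 4.81, 4.18, 3.63 and 4.94, and B cells -0.73 and -1.23. All 18 NK arrays were above both B cell arrays, a gap in this direction that 7.42% of 12388 genes showed. The mean over the 4 NK subsets was 3.60, against -0.98 in B cells, a log2 difference of 4.58 ± 0.56 and a 23.9-fold higher signal (limma adjusted p = 4.57e-05). ID2 was the only one of the 4 genes to pass in this comparison, in which 2.92% of all genes did.

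The margin over B cells held in each subset. ID2 was higher than in B cells by 4.41 ± 0.63 in double positives (limma adjusted p = 0.00033), 4.34 ± 0.63 in CD11b single positives (adjusted p = 0.000475), 4.20 ± 0.65 in double-low cells (adjusted p = 0.00151) and 5.37 ± 0.65 in CD27 single positives (adjusted p = 5.68e-05). The shares of all genes called as higher were 0.613%, 1.1%, 7.52% and 0.533% in that order, and the 4 comparisons share both B cell arrays. Both B cell arrays lay on the second slide, and with the arrays of that slide alone the difference of NK cells minus B cells was 3.93. Replicate 3 was the only array of each CD11b+ subset on that slide.

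Among NK subsets, the mean of ID2 was 4.39 ± 0.60 (SD, n = 4) in CD27 single positives, then 3.44 ± 1.30 (n = 5) in double positives, 3.37 ± 0.52 (n = 5) in CD11b single positives and 3.22 ± 0.27 (n = 4) in double-low cells, with overlap between neighbours. Double-low cells did not overlap with CD27 single positives, and were lower in 4 of 4 pairs, with differences of -1.20, -1.05, -0.66 and -1.77. The share of genes with such a gap was 3.73%. The fitted difference was -1.17 ± 0.54 with a 95% interval of -2.31 to -0.03, which did not pass after adjustment over all genes (limma adjusted p = 0.374). No gene passed in this or any other pair of NK subsets (0% called), and 1566 genes had an unadjusted p under 0.05 in this pair.

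The other differences of ID2 between NK subsets did not pass either. CD27+ minus CD27lo subsets gave 0.62 ± 0.37 with a 95% interval of -0.15 to 1.39 (limma adjusted p = 0.278), in a comparison with 0 genes called (0%) and 2711 at an unadjusted p under 0.05. CD11b+ minus CD11blo subsets gave -0.40 ± 0.37 with an interval of -1.17 to 0.36 (limma adjusted p = 0.946), where 2 genes (0.0164%) were called. One array weighed on these values. Replicate 3 of double positives, at 1.28, was the lowest NK array by 1.35 log2 units, and without it the CD27 difference was 0.89. Within the first slide the CD27 difference was 0.89, and within the second, which holds that array, -0.35. With slide as a block, which could not move the CD27 difference, it was 0.62. The CD11b difference was 0.16, -1.45 and -0.48 in the same order. The interaction of CD27 with CD11b was -1.10 ± 0.73 (limma adjusted p = 0.9997).

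ID3 had the widest scatter within subsets. Double positives had -1.92, 0.74, -1.33, -3.32 and -1.62 and CD11b single positives -2.80, -0.93, -1.08, -3.21 and -2.51. Double-low cells had 0.31, 0.05, 0.11 and -2.02, CD27 single positives 1.29, 1.25, -0.97 and -2.11, and B cells -0.40 and -0.05. The lowest ID3 signals before scaling were 17.98 and 49.2 intensity units, in replicate 4 of double positives and of double-low cells, the dimmest arrays. Both spots were flagged as well above background, and both values enter the spread and means of ID3. The pooled SD within subsets was 1.34 log2 units, against 1.16 for TOX, 1.14 for IRF8 and 0.81 for ID2. The means were -0.13 ± 1.69 (SD, n = 4) in CD27 single positives, -0.22 ± 0.25 (n = 2) in B cells, -0.39 ± 1.09 (n = 4) in double-low cells, -1.49 ± 1.46 (n = 5) in double positives and -2.10 ± 1.04 (n = 5) in CD11b single positives, and neighbours in this order overlapped.

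With CD27 balanced, ID3 was -1.54 ± 0.59 in CD11b+ minus CD11blo subsets (95% interval -2.77 to -0.31), with an unadjusted p of 0.0172 and a limma adjusted p of 0.946 over all genes. The lowest, median and highest levels were -3.32, -1.77 and 0.74 in the 10 CD11b+ arrays, against -2.11, 0.08 and 1.29 in the 8 CD11blo arrays. ID3 was lower in CD11b single positives than in CD27 single positives and than in double-low cells in 4 of 4 pairs each, and lower in double positives than in CD27 single positives in 4 of 4. In each of these comparisons 2 of the 4 pairs carried the same origin, sex and age label, and pair 4 lay on different slides. None of these differences passed: they were -1.97 ± 0.83 (limma adjusted p = 0.812), -1.72 ± 0.83 (adjusted p = 0.945) and -1.36 ± 0.83 (adjusted p = 0.9999). Within the second slide they were 0.46, -0.12 and 0.21. CD27+ minus CD27lo subsets differed by 0.43 ± 0.59 (95% interval -0.80 to 1.66, limma adjusted p = 0.612).

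The levels of ID3 also moved with the slide. NK arrays averaged -0.25 on the first slide, -1.23 on the second and -2.66 on the third, which held CD11b+ subsets alone. The slide accounted for 42.8% of the variance of ID3 over NK arrays, against 3.70% for TOX, 9.30% for IRF8 and 21.8% for ID2. Slide and origin went partly together. The slide with CD11b+ subsets alone held only arrays from Singapore, and the slide of replicates 1 and 2 held none. ID3 was -3.32 to -1.62 on the NK arrays from Singapore, and -2.80 to 1.29 on those from Cambodia and Vietnam. With slide as a block the CD11b difference of ID3 was -1.15, within the first slide it was -1.95 and within the second 0.04. Its CD27 difference was 0.43 with slide as a block, which could not move it, 1.18 within the first slide and -0.42 within the second. On the last-named slide the CD11b+ subsets had arrays from Vietnam alone, and the CD11blo subsets had arrays from Vietnam and Singapore. The arrays from Singapore were also the only NK arrays from females there, and were labelled 18 years, older than the others. Values within that slide therefore do not isolate CD11b from origin, sex or age. The parts of slide, origin, sex and age in the ID3 differences were not tested further.

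The levels were also set beside array brightness, the log2 75th percentile of intensity. Over all NK arrays none of the 4 correlations passed. The adjusted p of r was 0.942 for TOX, 0.846 for IRF8, 0.592 for ID2 and 0.0958 for ID3 (permutation test, Benjamini-Hochberg). That test treats the arrays as independent, although they share slides and may share animals. Over 18 NK arrays its correlation with the level was r = 0.01 for TOX (rho = 0.25), -0.11 for IRF8 (rho = 0.17), 0.26 for ID2 (rho = 0.38) and 0.50 for ID3 (rho = 0.54). Without the 2 arrays farthest from the median brightness, r was 0.66 for TOX, 0.45 for IRF8, 0.32 for ID2 and 0.37 for ID3. Among the 8 arrays of the first slide it was 0.81 for TOX, 0.77 for IRF8, 0.71 for ID2 and 0.35 for ID3, and among the 6 NK arrays of the second 0.11, -0.05, -0.02 and 0.67 in the same order. On the first slide all 4 CD27+ arrays, at 1314 to 1897 intensity units, were brighter than all 4 CD27lo arrays, at 622 to 1061, so CD27 and brightness cannot be told apart there. The part of brightness in the differences of the 4 genes was not tested.

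**Figure D4:**
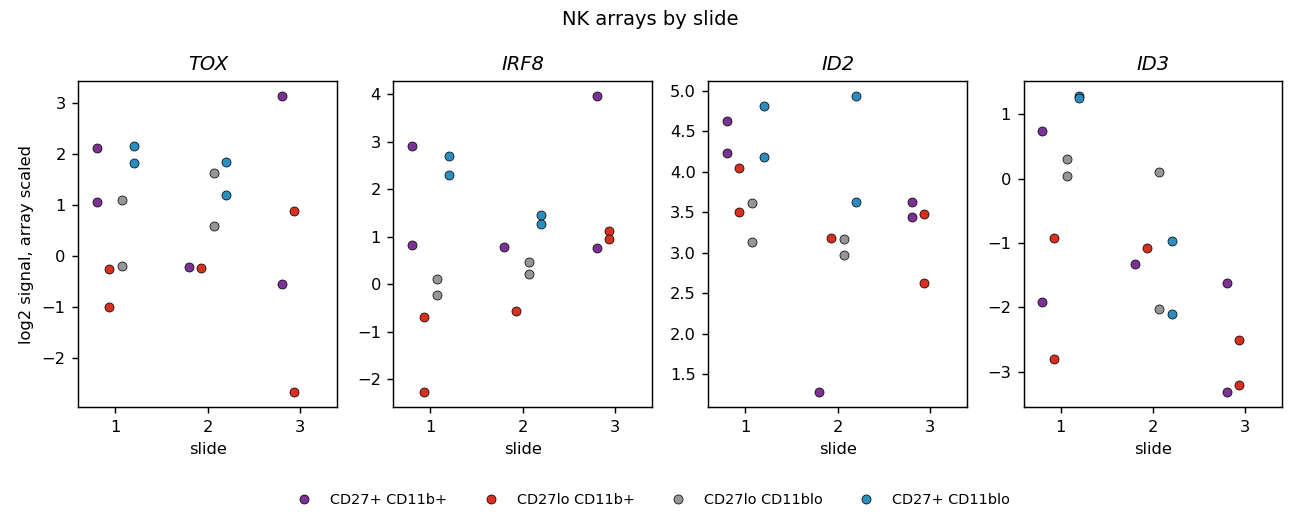
Levels on the 18 NK arrays by slide, as log2 signal relative to the 75th percentile of the array, coloured by subset. ID3 averaged -0.25, -1.23 and -2.66 on slides 1 to 3, and the third slide held double positives and CD11b single positives alone.

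Relative to B cells, TOX, IRF8 and ID3 did not pass. The median of all genes was 0.36 higher in NK cells in this comparison. TOX differed by 1.46 ± 0.78 in NK cells minus B cells (95% interval -0.18 to 3.10, limma adjusted p = 0.265), and 15 of 18 NK arrays were above both B cell arrays. IRF8 differed by -1.20 ± 0.77 (95% interval -2.81 to 0.41, limma adjusted p = 0.333), with 14 NK arrays below both B cell arrays and 4 above. ID3 differed by -0.81 ± 0.90 (95% interval -2.68 to 1.06, limma adjusted p = 0.559), with 12 below and 6 above. Both B cell arrays came from females from Singapore, unlike most NK arrays. For ID3, every NK array from Singapore (-3.32 to -1.62) lay below both B cell arrays, and the 6 above were all from Cambodia or Vietnam. The parts of origin and sex in the differences from B cells were not tested.

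Since TOX and IRF8 were selected on their levels in the subsets, their differences from B cells in single subsets carry that choice over and are given without p. For IRF8 they were -0.26 ± 0.86 in double positives, -2.40 ± 0.86 in CD11b single positives, -1.97 ± 0.89 in double-low cells and -0.18 ± 0.89 in CD27 single positives. For TOX they were 1.82 ± 0.88, 0.06 ± 0.88, 1.49 ± 0.91 and 2.47 ± 0.91 in the same order. On the second slide alone, NK cells minus B cells gave -1.63 for IRF8, 1.26 for TOX and -1.0 for ID3. Replicate 3 was the only array of each CD11b+ subset there, so these values are a description.

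Relatives and partners of the 4 genes were taken from lists of known family members. In NK cells minus B cells, 2.92% of all 12388 genes passed, which is the share to set beside the counts below. TOX4, the 1 measured relative of TOX, differed by -2.79 ± 1.48 in NK cells minus B cells (limma adjusted p = 0.262). None of 7 other interferon regulatory factors passed in either direction, and their median difference was -0.80, against 0.36 for all genes. The largest were IRF4, a factor of B and plasma cells, at -4.17 ± 1.22 (limma adjusted p = 0.0691, well above background on 5 of 18 NK arrays) and IRF5 at -3.04 ± 0.91 (adjusted p = 0.074). SPI1, which encodes PU.1, a DNA-binding partner of IRF8, was lower in NK cells, with a difference of -2.22 ± 0.55 (limma adjusted p = 0.033), the 1 gene of 6 measured IRF8 partners and myeloid factors to pass; the median of the 6 was -0.85.

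For the ID proteins, the measured relatives were ID1 and the E proteins TCF4 and TCF12, and none of the 3 passed. TCF4 differed by -1.44 ± 0.56 (limma adjusted p = 0.147), ID1 by 1.07 ± 0.55 (adjusted p = 0.248) and TCF12 by -0.10 ± 0.42 (adjusted p = 0.884). ID2 was thus the 1 measured gene of the ID and E protein set that passed. In the CD27 comparison none of the 17 genes of the lists of TOX, IRF, IRF8 partner and ID relatives passed, nor in the CD11b comparison. Of all 12192 genes, 0% passed for CD27 and 0.0164% for CD11b, so these counts say little about the lists.

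**Figure D5:**
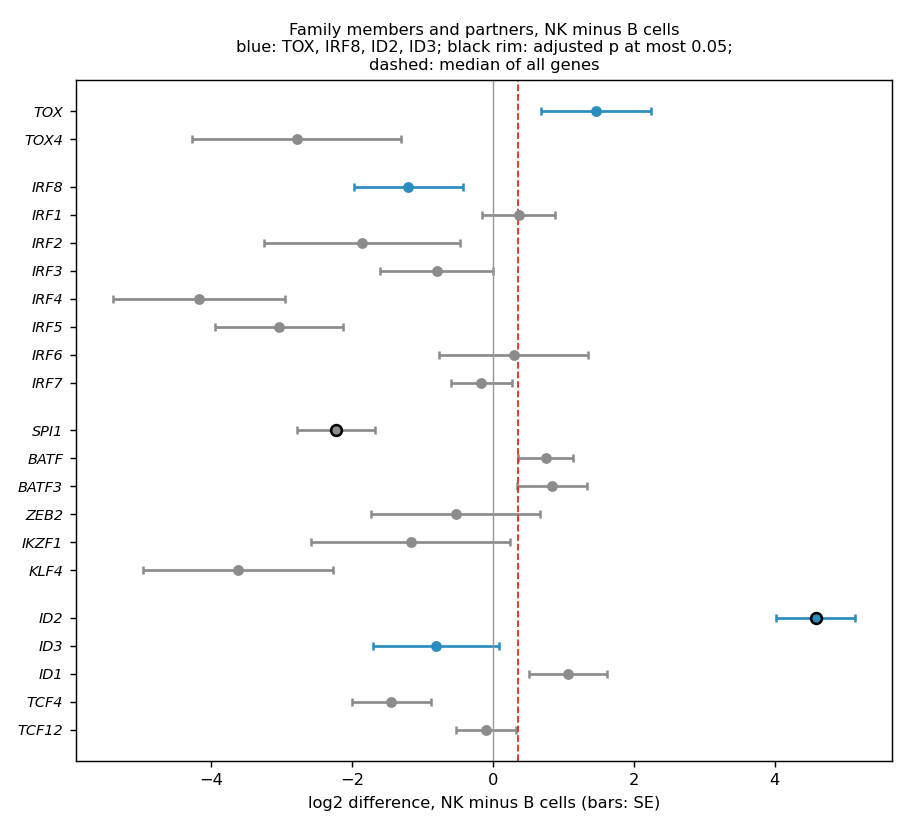
Log2 difference of NK cells minus B cells with standard errors for TOX, IRF8, ID2 and ID3 (blue) and for measured relatives and partners (grey); a black rim marks an adjusted p of at most 0.05 and the dashed line the median of all genes. ID2 (4.58) and SPI1 (-2.22) passed.

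Other regulators of NK cell development gave the setting. Of all genes, 1.72% passed as higher in NK cells than in B cells and 1.2% as lower. Of 9 measured early NK and innate lymphoid factors, GATA3 was higher in NK cells by 5.11 ± 0.65 (limma adjusted p = 7.74e-05, well above background on 1 of 2 B cell arrays) and no other passed; the median of the 9 was 0.77. Of 7 measured NK maturation factors, EOMES, a T-box factor of NK cells, was higher by 7.31 ± 0.84 (limma adjusted p = 3.01e-05, well above background on 1 of 2 B cell arrays). BACH2, a repressor active in B cells, was lower, with a difference of -5.81 ± 0.77 (limma adjusted p = 0.000112, well above background on 4 of 18 NK arrays). The T-box factor TBX21 differed by 1.97 ± 0.60 and did not pass (limma adjusted p = 0.0765). None of these 16 genes passed for CD27 or CD11b, where 0% and 0.0164% of all genes did. Of the NK identity genes, 1 passed for CD11b: PRF1, which encodes perforin, was higher in CD11b+ subsets by 1.95 ± 0.31 (limma adjusted p = 0.0307). With slide as a block no gene passed for CD11b (0 genes), so this call was lost; the third slide held CD11b+ subsets alone.

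Over the 18 NK arrays, TOX and IRF8 correlated at r = 0.67 and rho = 0.73. Both were selected on the same subset differences, which raises this value by construction. After removing subset means the correlation was 0.49 for TOX and IRF8 and 0.39 for TOX and ID2. The other 5 pairs had r between 0.16 and 0.47 over all NK arrays. The arrays share slides and may share animals, so these values are a description. The markers of T cells, which can express TOX, are given beside it: TOX correlated with the summed signal of 5 measured T cell markers at r = 0.58 (rho = 0.51). That sum was 6.29 to 13.5 in double positives, 6.15 to 13.4 in CD11b single positives, 5.20 to 11.0 in double-low cells and 8.43 to 14.2 in CD27 single positives, against 2.20 to 2.44 in B cells, and each of the 5 was well above background on some array of every NK subset. The part of these cells in the TOX levels was not tested.

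Among 12171 genes ranked by their correlation over the 18 NK arrays, the pattern of TOX was most like those of PAG1 (r = 0.84), SYNCRIP (0.84), SBDS (0.83), LOC102118724 (0.82) and MED31 (0.80). The genes most like IRF8 were DNAJC3 (r = 0.83), JADE1 (0.81), TP53INP2 (0.81), ARF1 (0.80) and PTP4A1 (0.80). Those most like ID2 were ANAPC13 (r = 0.87), DOCK8 (0.86), PRORP (0.85), BTF3 (0.84) and IRF2 (0.84), and those most like ID3 were JAML (r = 0.82), SETD4 (0.80), HES1 (0.79), DNAJA4 (0.78) and LOC102132814 (0.78). No gene stood in more than 1 of these sets.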

How the data were processed

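RNA of sorted cells was amplified and labelled with Cy3, 1 sample per array. The submitters' processing notes name Agilent Feature Extraction 10.7.1.1 for the scans and Partek, with no version, for later steps. Per the file headers, the deposited processed signal is a background-subtracted, detrended intensity, and the spot and background medians are raw intensity. The deposited value table holds log2 values with the same set of quantiles on each array, and served as an alternative.

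Of 58659 probes, 20417 (34.8%) matched 12530 genes of the RefSeq table (T2T-MFA8v1.1); the genome build behind the array design was not used here. Spots flagged as outliers were left out, and each gene was represented by its brightest probe on average. Testing required a probe well above background on 4 or more of 18 NK arrays (12192 genes) or 2 or more of 20 arrays (12388 genes). Log2 processed signals, less the 75th percentile of their array, entered limma 3.58.1 (R 4.3.3) with lmFit and a robust, trended eBayes and no block; p was adjusted by Benjamini-Hochberg over all genes, with a threshold of 0.05. NK arrays shared 1 estimate of spread. The number of arrays limits precision. The code was tested on simulated data. Slide values (block, within slide), array weights, normalizations, filters and left-out arrays were alternatives; normexp used the spot medians.

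The members and lists were chosen with earlier results of these data known. Named were the 4 genes, the 5 genes most correlated with each, and from each list the genes that passed, or else the 2 of largest difference from B cells, with 2 to 4 examples for long lists.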

Additional observations from a re-analysis of the deposited data

Results flagged for a closer look

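Of 16 sets of arrays tested (4 genes in 4 NK subsets), 1 held an array far from the others. ID3 in replicate 4 of double-low cells was -2.02, against 0.05 to 0.31 in the other 3 double-low arrays; the gap was 0.889 of the whole range. By chance about 1 set in 20 would be so marked. This array was among the 2 dimmest, with a 75th percentile of 199.6 intensity units. Replicate 4 of CD27 single positives, of the same slide, origin, sex and age label, had an ID3 level of -2.11 at 817.9 intensity units. The cause of the low value was not tested.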

How the results depend on the processing

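Over 1280 recomputed differences of the 4 genes, 1257 moved by less than 1 SD and, where tested, kept their side of the threshold. Of the others, 19 moved further and 4 newly passed. Each gene had 1 probe, so dropping the detection filter, testing every probe and averaging over probes could not move the estimates. Slide and replicate blocks could not move the CD27 differences or the interaction, because CD27+ and CD27lo arrays were balanced within them. The same holds for double positives minus CD11b single positives and for double-low cells minus CD27 single positives. These settings are among the counts given here. The only called difference among those recomputed was ID2 in NK cells minus B cells, which kept its call and sign. ID2 in NK cells minus B cells passed in all 31 alternatives (3.93 to 4.83). Array weights brought ID2 for CD27 (0.77, limma adjusted p = 0.0396) and TOX (1.56, adjusted p = 0.00413) and IRF8 (-1.24, adjusted p = 0.0134) in NK cells minus B cells past the threshold. With these weights 3972 of 12192 genes passed for CD27 and 5673 of 12388 in NK cells minus B cells, so these passes say little about the named genes. The remaining new pass was IRF8 in NK cells minus B cells on the second slide alone (-1.63), where each CD11b+ subset had 1 array. Within the second slide, with differences added after seeing the data, TOX for CD27 was 0.21, ID2 for CD27 -0.35, ID2 for CD11b -1.45 and ID3 for CD11b 0.044. The 362 genes that passed in NK cells minus B cells became 1822 over every probe, 5673 with array weights and 1924 on the second slide; leaving out 1 array gave 64 (without replicate 1 of B cells) to 719. The 2 genes for CD11b became 14 over every probe, 1 with the mean over probes, 0 with slide as a block, 5 with array weights and 1 without the dimmest arrays, and 1 to 4 without 1 array; the 0 genes for CD27 became 1 with normexp, 3972 with array weights, 151 centred on the median of all genes (added after seeing the data) and 0 to 1 without 1 array. The CD27 difference of IRF8 was positive in 32 of 32 alternatives (1.19 to 2.96), and that of TOX in 32 of 32 (0.21 to 1.88). Both genes were selected on subset differences of these same arrays, so nothing is read from these counts. Of pairs of subsets, IRF8 in CD11b single positives minus double-low cells was -0.43, and 0.06 without replicate 1 of CD11b single positives; TOX in the same pair was -1.44, and -0.93 without replicate 5; ID2 in double positives minus double-low cells was 0.22, and 0.76 without replicate 3 of double positives; TOX in double positives minus double-low cells was 0.33, and -1.33 within the second slide; IRF8 in the same pair was 1.71, and 0.44 within the second slide. The cause of these moves was not tested. Dim arrays limit the lowest signals.

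Replicate numbers were not taken to pair the samples, because the labels do not say which arrays share an animal. Of 25 pairs of arrays with the same number, 17 had correlated deviations over 0.1 (median 0.22, lowest -0.30). Of 19 pairs of equal origin, sex and age label, 14 did (median 0.24), and 12 of 18 NK arrays correlated best with their own number. With equal label as a random block the fitted correlation was 0.04 over NK arrays, and no call on the 4 genes changed. The replicate number also joins arrays of unlike label in replicates 3 and 4. With the replicate block, 1 gene passed for CD11b and 0 for CD27. Each replicate number held equal numbers of CD27+ and CD27lo arrays, so this block could not move the CD27 differences. They stayed at 1.97 for IRF8, 1.37 for TOX, 0.62 for ID2 and 0.43 for ID3. The CD11b differences were -0.28 for IRF8, -0.58 for TOX (-1.04 without the block), -0.33 for ID2 and -1.47 for ID3. No call on the 4 genes changed.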

Other observations

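Lists not described above gave few calls in NK cells minus B cells (limma, adjusted p of at most 0.05), where 2.92% of all genes passed. Of 8 measured dendritic cell genes, CD1C, a lipid-presenting molecule also found on B cells, was lower in NK cells, with a difference of -4.75 ± 0.57 (limma adjusted p = 4.04e-05). None of 8 monocyte and macrophage genes and none of 8 proliferation genes passed, with median differences of 0.63 and -0.57, against 0.36 for all genes. Of 5 measured T cell genes, TRAT1, an adaptor of the T cell receptor complex, passed as higher in NK cells, and was not well above background on either B cell array. Of the monocyte genes, LYZ had the largest difference, -2.09 ± 1.04 (limma adjusted p = 0.233). ID2 correlated with the summed signal of the 8 monocyte and macrophage markers at r = -0.60 (rho = -0.61) over the 18 NK arrays, and their part in its levels was not tested.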
